A study of Rattus norvegicus with 9 samples.

Results

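Early genes that neurons share with most other cell types, 10 in number, were described across 9 RNA libraries of rat cortical neurons: Ccn1, Ier2, Ier5, Btg2, Klf2, Klf4, Maff, Atf3, Gadd45b and Gadd45g. They are growth- and stress-induced early genes outside the Fos, Jun, Egr and Nr4a families, and each was taken as the entry of the deposited expression table that carries its symbol. All 10 of 10 were found once among the 32623 entries of the table and passed the filter on low counts, which 16284 genes passed. The neurons came from wild-type Wistar rat embryos of embryonic day 16 to 18. They were cultured on conductive indium tin oxide glass in 3 groups of 3 libraries each: control without current, direct current stimulation (DCS) and alternating current stimulation (ACS). Both currents were 3 µA, given for 20 min a day over 7 days per the labels and the methods of the study. The labels also give 20 Hz for both currents, whereas the methods of the study give a frequency for ACS alone. The age of the cultures is given as day 7 in vitro in one label and as day 14 in another. Whether replicate libraries were made from different cultures is not stated, and the p-values then cover only the spread between these samples, which may be technical. The time between the last stimulation and RNA extraction is not given in the sources used here.

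Early genes are transcribed within minutes of a stimulus through transcription factors that are already present in the cell, such as SRF with its ELK partners and CREB, and most of their mRNAs and proteins are short-lived. In fibroblasts, endothelium and other dividing cells they answer serum, mechanical load and stress. In neurons several of them also answer synaptic activity. Their products differ in kind. Ccn1 (also called Cyr61) is a secreted matrix-associated protein that binds integrins. Ier2 and Ier5 are small regulators found in the nucleus, Ier5 together with the heat shock factor HSF1. Btg2 is an antiproliferative protein that binds the CCR4-NOT complex, which shortens mRNA tails. Klf2 and Klf4 are zinc finger factors, Maff is a small Maf factor without a transactivation domain, and Atf3 is a stress-induced factor of the ATF/CREB family. Gadd45b and Gadd45g are stress sensors that bind the kinase upstream of p38 and JNK.

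Ccn1 and Ier2 rose under ACS, and no other member passed the test in any comparison. Against control, Ccn1 was 3.63-fold and Ier2 2.19-fold higher under ACS. Under DCS both stayed in the range of the controls or close to it, and against DCS they were 3.36-fold and 1.9-fold higher under ACS (edgeR, adjusted p = 0.0198 and 0.0108). The total counts of the libraries ran from 49039412 to 68690760, and about 4 counts correspond to 1 fragment. Levels in CPM, counts scaled to a library total, include the TMM factor, which corrects for library composition. The log2 fold changes, their standard errors (SE) and 95% intervals come from an edgeR quasi-likelihood fit over all 9 libraries. A gene is called at a Benjamini-Hochberg adjusted p under 0.05 over the 16284 genes. Each group enters 2 of the 3 comparisons, which therefore share libraries, so they do not count as separate evidence.

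The bases before the start of transcription are where early genes carry the sites of their inducing factors. Those of the 2 genes that rose are shown beside those of Btg2 and Maff. These 2 were not called, and they are the uncalled members in which TGACGTCA was found. The promoters are from RefSeq, build GRCr8, which held 8 of the 10 members (Klf2 and Atf3 are the others). Each line gives the 250 bases before the start, read 5′ to 3′ on the strand of the gene. Capitals mark TATAAA, the core of a TATA box, in Ccn1, and TGACGTCA, the full CREB and ATF site, in Ier2, Btg2 and Maff. Ccn1 lies on the minus strand at chr2:237225690-237225939, Ier2 on the plus strand at chr19:40399123-40399372, Btg2 on the minus strand at chr13:48087691-48087940 and Maff on the plus strand at chr7:112792537-112792786.
Ccn1: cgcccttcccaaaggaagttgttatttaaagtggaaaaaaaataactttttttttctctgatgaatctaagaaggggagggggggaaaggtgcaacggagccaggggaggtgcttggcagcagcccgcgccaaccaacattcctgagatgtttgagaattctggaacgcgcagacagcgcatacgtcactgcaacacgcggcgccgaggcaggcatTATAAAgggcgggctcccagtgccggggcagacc
Ier2: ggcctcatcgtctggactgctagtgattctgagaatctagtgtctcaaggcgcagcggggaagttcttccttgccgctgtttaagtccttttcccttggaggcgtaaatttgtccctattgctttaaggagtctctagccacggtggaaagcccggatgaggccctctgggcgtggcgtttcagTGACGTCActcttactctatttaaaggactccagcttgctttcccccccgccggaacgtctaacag
Btg2: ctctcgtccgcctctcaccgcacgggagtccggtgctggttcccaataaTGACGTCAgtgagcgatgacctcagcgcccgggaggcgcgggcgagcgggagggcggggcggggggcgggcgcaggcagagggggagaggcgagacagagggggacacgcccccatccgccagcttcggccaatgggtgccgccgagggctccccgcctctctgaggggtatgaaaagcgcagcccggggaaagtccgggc
Maff: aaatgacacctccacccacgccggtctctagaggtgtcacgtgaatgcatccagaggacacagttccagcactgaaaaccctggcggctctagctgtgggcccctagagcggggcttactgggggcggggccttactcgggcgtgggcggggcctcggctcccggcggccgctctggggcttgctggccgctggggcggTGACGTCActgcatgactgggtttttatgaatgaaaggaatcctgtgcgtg

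In the Ccn1 promoter TATAAA began at -34 from the start of transcription. TGACGTCA began at -66 in Ier2, at -201 in Btg2 and at -51 in Maff. Of the 8 promoters searched, 3 held TGACGTCA, against 1.83% of 33469 rat promoters of the same 300 bases (250 before and 50 after the start). TATAAA was found in 4, Ccn1, Ier5, Klf4 and Gadd45g, against 14.2% of all promoters. It began at -45 in Ier5 and at -48 in Gadd45g, on the strand of the gene as in Ccn1. In Klf4 it was on the other strand alone, at -146 and -78. GGGCGG, the core of the SP1 and KLF site, was in 5 of them against 33.1%. The CArG box of SRF was in 0 of 8 (1.64% of all) and TGANTCA, the AP-1 site, in 0 of 8 (7.33% of all). Both strands were searched, and no match of a motif shared bases with a match of another motif. TGACGTCA was in the window of Ier2, which rose under ACS, and in those of Btg2 and Maff, which were not called. It was absent from the window of Ccn1, which rose, and from those of Ier5, Klf4, Gadd45b and Gadd45g, which were not called. The part of the site in the changes was not tested. A match is a stretch of letters and not a measured binding site, and a missing match says only that the letters are not in this window.

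Ccn1, at chr2:251529354-251532312 on the minus strand in the coordinates of the table, which names no genome build, had the largest fold change of the 10. Its level was 3.31, 4.33 and 5.71 CPM in the control libraries and 3.43, 4.72 and 6.28 CPM in the DCS libraries. In the ACS libraries it was 14.2, 15.1 and 19.3 CPM. The lowest ACS library thus lay above every control and DCS library, while the control and DCS libraries interleaved. The group means were 4.45 ± 1.20 CPM in control, 4.81 ± 1.43 CPM under DCS and 16.2 ± 2.76 CPM under ACS (SD, n = 3 each). ACS was above control by 1.86 on the log2 scale (SE 0.256, 95% interval 1.29 to 2.43, edgeR adjusted p = 0.0054). DCS differed from control by 0.11 (95% interval -0.45 to 0.67, edgeR adjusted p = 0.930). ACS against DCS gave 1.75 (SE 0.255, 95% interval 1.18 to 2.32, edgeR adjusted p = 0.0198). By p, Ccn1 stood at place 90 of 16284 genes for ACS against control and at place 40 for ACS against DCS.

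Ier2 is at chr19:25774143-25775659 on the minus strand, where the table calls it a pseudogene and RefSeq a protein-coding gene. In GRCr8 it lies on the plus strand. All 38 other genes found in both sources within 1 Mb of it have opposite strands in the table and in RefSeq. It was at 11.1, 12.1 and 14.6 CPM in control and at 13.3, 13.9 and 16.7 CPM under DCS. Under ACS it was at 27.4, 26.1 and 29.4 CPM. The ACS libraries again lay above all others, and they were closer to each other than those of Ccn1. The means were 12.6 ± 1.78, 14.6 ± 1.82 and 27.7 ± 1.66 CPM (SD, n = 3 each). ACS against control gave a log2 fold change of 1.13 (SE 0.122, 95% interval 0.86 to 1.41, edgeR adjusted p = 0.00184), and ACS against DCS 0.92 (SE 0.122, 95% interval 0.65 to 1.19, edgeR adjusted p = 0.0108). Of the 3 DCS libraries 2 were inside the control range and 1 was above it, and the DCS difference from control was 0.21 (95% interval -0.06 to 0.48, edgeR adjusted p = 0.706). Ier2 stood at place 31 by p both for ACS against control and for ACS against DCS.

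**Figure D1:**
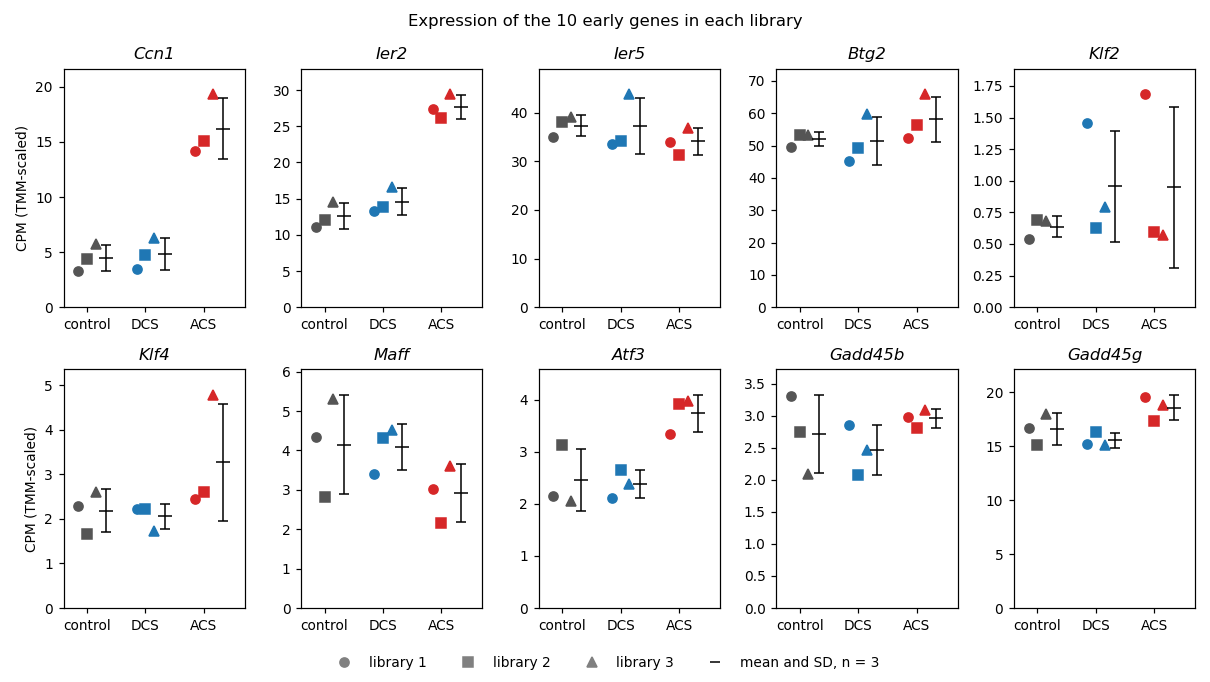
Each panel plots the level of 1 gene in CPM (TMM-scaled, linear axis from 0) in the 3 control, 3 DCS and 3 ACS libraries, with the marker shape giving the library number and the bar the mean and SD (n = 3). Ccn1 and Ier2 under ACS lie above all control and DCS libraries, whereas Klf2 is high in 1 DCS and 1 ACS library.

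The 2 calls among the 10 members (20.0%) for ACS against control compare with 4.16% of all tested genes, or 2.83% called higher. No member was called lower, as 1.33% of all genes were. Of 10 estimates, 8 were above 0, with a median log2 fold change of 0.37 against -0.0029 for all tested genes. Among the 8 uncalled members the median was 0.16 and the lowest adjusted p was 0.128. The unadjusted p was under 0.05 for 3 members (Ccn1, Ier2 and Atf3), as it was for 20.8% of all genes. The same 3 had ACS libraries all above the control libraries, as 14% of all genes did. For DCS against control, 0 of 10 members were called by edgeR and 0.0123% of all genes were. None had an unadjusted p under 0.05 (7.09% of all genes) and none had groups that did not overlap (11.1% of all genes). The estimates ran from -0.14 for Gadd45b to 0.58 for Klf2 with a median of -0.02, and DESeq2 also called 0. For ACS against DCS, 2 members were called, both higher, against 0.633% of all genes called in either direction and 0.51% called higher, and 5 had ACS libraries all above the DCS libraries, against 11.2% of all genes. These were Ccn1, Ier2, Klf4, Atf3 and Gadd45g, which were also the 5 with an unadjusted p under 0.05 (13.9% of all genes). At the thresholds of the study, an unadjusted p under 0.05 with a log2 change of more than 1 either way, Ccn1 and Ier2 passed for ACS against control (1.47% of all genes), 0 members for DCS against control (0.571%) and Ccn1 for ACS against DCS (1.03%). Since RNA was taken from whole cultures, more transcript per cell and more cells of a type that makes it cannot be told apart.

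**Figure D2:**
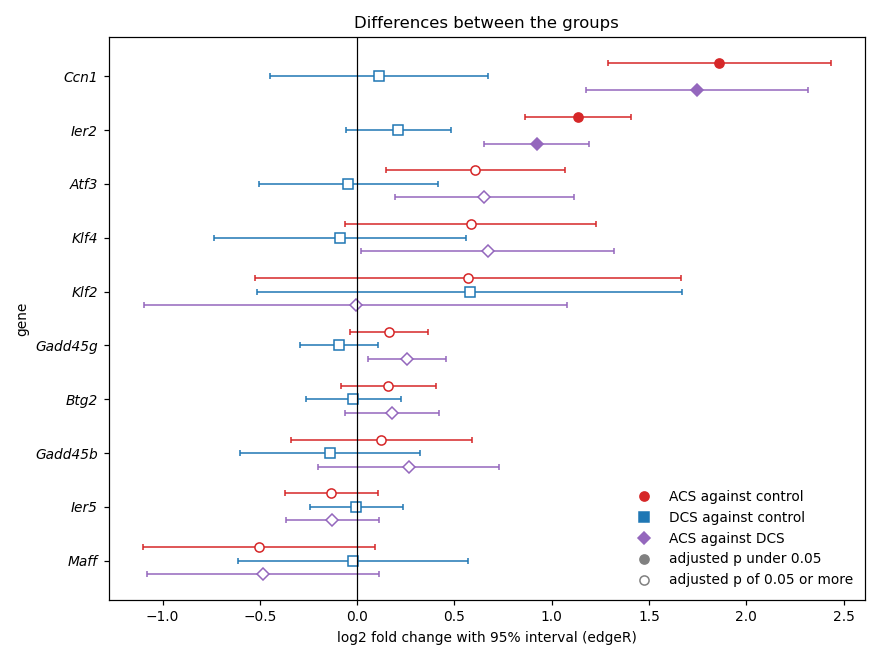
Points give the log2 fold change of each gene (horizontal axis, edgeR) with its 95% interval for ACS against control, DCS against control and ACS against DCS, filled where the adjusted p is under 0.05. Filled points are seen for Ccn1 and Ier2 alone, and all DCS intervals include 0.

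The calls of Ccn1 and Ier2 against control held with any 1 library left out, with an adjusted p between 0.00398 and 0.0379 for Ccn1 and between 0.00143 and 0.0175 for Ier2. Against DCS they rested on more of the libraries. Ccn1 was no longer called without DCS library 1 (edgeR adjusted p = 0.0507), DCS library 2 (0.111), ACS library 1 (0.0556), ACS library 2 (0.0714) or ACS library 3 (0.0832). Ier2 was no longer called without DCS library 2 (edgeR adjusted p = 0.0711), ACS library 1 (0.0556) or ACS library 3 (0.0589). The estimates themselves stayed between 1.56 and 1.99 for Ccn1 and between 0.86 and 1.03 for Ier2.

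**Figure D3:**
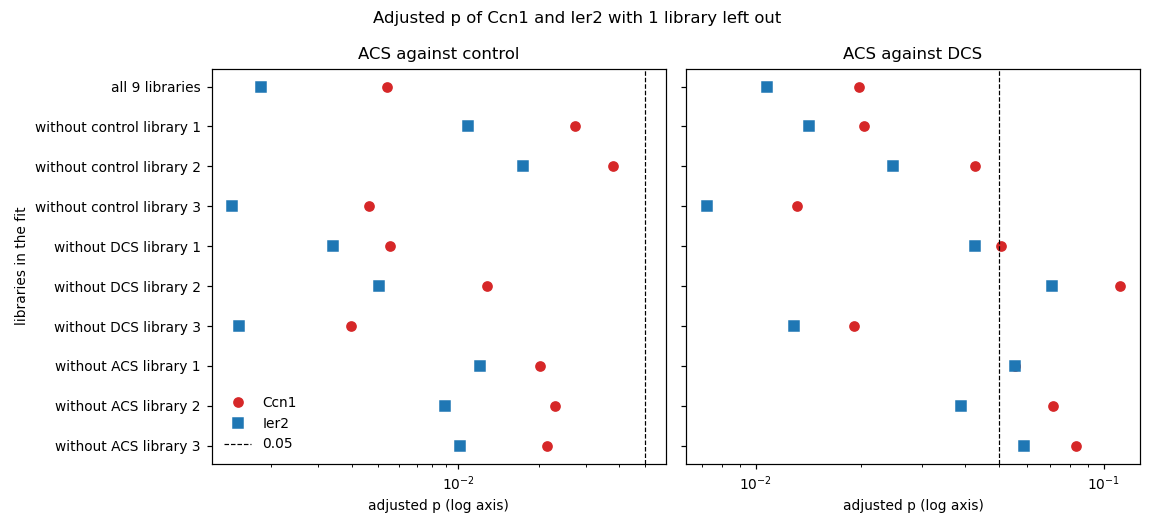
The adjusted p (horizontal, log axis) of Ccn1 and Ier2 is plotted for the fit of all 9 libraries and for each fit with 1 library left out (rows), with the dashed line at 0.05. All points for ACS against control lie under the line, and for ACS against DCS 5 of the 9 fits for Ccn1 and 3 of the 9 for Ier2 lie above it, the values without ACS library 1 being on top of each other.

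Ier5, the other small nuclear regulator (chr13:72742210-72744303, minus strand), was at 34.9, 38.1 and 39.1 CPM in control, at 33.6, 34.3 and 43.8 CPM under DCS and at 33.9, 31.3 and 36.9 CPM under ACS. The groups overlapped, and the ACS difference from control was -0.13 (95% interval -0.37 to 0.11, edgeR adjusted p = 0.521). The interval of the DCS difference ran from -0.24 to 0.23 (edgeR adjusted p = 0.999).

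Btg2 (chr13:50913180-50916982, minus strand) was the member with the highest level per length. It was at 49.6, 53.3 and 53.3 CPM in control, at 45.2, 49.1 and 59.6 CPM under DCS and at 52.3, 56.3 and 65.9 CPM under ACS. The 3 groups overlapped. ACS against control gave 0.16 (95% interval -0.08 to 0.40, edgeR adjusted p = 0.443) and DCS against control -0.02 (95% interval -0.26 to 0.22, edgeR adjusted p = 0.979).

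Of the 4 transcription factors, Atf3 (chr13:109817728-109849632, minus strand) came nearest to a call. It was at 2.15, 3.13 and 2.06 CPM in control, at 2.11, 2.65 and 2.37 CPM under DCS and at 3.33, 3.91 and 3.97 CPM under ACS. All 3 ACS libraries were above all others, by a narrow margin over control library 2. Its log2 fold change was 0.61 against control (SE 0.205, unadjusted p = 0.0145, edgeR adjusted p = 0.128) and 0.65 against DCS (SE 0.206, edgeR adjusted p = 0.191). Against control, DESeq2 gave it an adjusted p of 0.0856. DCS against control was -0.04 (95% interval -0.50 to 0.41, edgeR adjusted p = 0.972).

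Klf4 (chr5:72283313-72287669, minus strand) was at 2.30, 1.65 and 2.61 CPM in control, at 2.22, 2.21 and 1.74 CPM under DCS and at 2.44, 2.60 and 4.78 CPM under ACS. ACS library 3 stood apart and the other 2 ACS libraries were within the control range. The log2 fold change of 0.58 against control (95% interval -0.06 to 1.23, edgeR adjusted p = 0.285) was 0.20 without that library. Against DCS it was 0.67 (95% interval 0.02 to 1.32, edgeR adjusted p = 0.346), and 0.29 without ACS library 3.

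Klf2 (chr16:19223087-19225037, minus strand) had the lowest control level per length of the 10, with 29 to 85 counts per library, which is about 7 to 21 fragments. It was at 0.542, 0.688 and 0.682 CPM in control, at 1.46, 0.623 and 0.790 CPM under DCS and at 1.69, 0.594 and 0.569 CPM under ACS. DCS library 1 and ACS library 1 were high, and the other stimulated libraries were at or near the control level. The estimates of 0.57 for ACS (95% interval -0.52 to 1.67, edgeR adjusted p = 0.549) and 0.58 for DCS (95% interval -0.51 to 1.67, edgeR adjusted p = 0.787) rest on these 2 libraries. They were -0.13 for ACS without ACS library 1 and 0.15 for DCS without DCS library 1. Klf2 is strongly expressed in endothelium. The summed level of 7 endothelial markers (of 8 listed) was 2.73 to 4.13 CPM in control, 1.88 to 4.31 CPM under DCS and 3.43 to 5.25 CPM under ACS, with none of the 7 at 0 in all libraries. ACS library 1 had the highest sum of all 9 libraries and DCS library 1 the lowest. Their part in the result was not tested.

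Maff (chr7:120580743-120592095, plus strand) had the lowest estimate of the 10 for ACS, against both control and DCS. It was at 4.34, 2.81 and 5.30 CPM in control, at 3.41, 4.32 and 4.51 CPM under DCS and at 3.01, 2.15 and 3.61 CPM under ACS. The ranges of ACS and control overlapped, with a log2 fold change of -0.51 (95% interval -1.10 to 0.09, edgeR adjusted p = 0.317). Against DCS it was -0.48 (95% interval -1.08 to 0.11, edgeR adjusted p = 0.468).

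Gadd45b (chr7:11646269-11648322, minus strand) was at 3.31, 2.74 and 2.09 CPM in control, at 2.85, 2.08 and 2.46 CPM under DCS and at 2.97, 2.80 and 3.09 CPM under ACS. The ACS libraries all fell inside the control range (log2 fold change 0.12, 95% interval -0.34 to 0.59, edgeR adjusted p = 0.781). Gadd45g (chr17:13391467-13393243, minus strand) was at 16.7, 15.1 and 18.0 CPM in control, at 15.2, 16.3 and 15.1 CPM under DCS and at 19.6, 17.3 and 18.8 CPM under ACS. Its ACS libraries lay above the DCS libraries but overlapped with control. Gadd45g gave 0.16 for ACS against control (95% interval -0.04 to 0.36, edgeR adjusted p = 0.338) and 0.26 for ACS against DCS (95% interval 0.06 to 0.46, unadjusted p = 0.0177, edgeR adjusted p = 0.241).

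Levels of different genes can be compared per length, in FPKM (fragments per kilobase of exon, scaled to the sequenced fragments of the library). In control the order of the mean FPKM was Btg2, Ier5, Gadd45g, Ier2, Ccn1, Maff, Gadd45b, Klf4, Atf3 and Klf2. It ran from 18.6 to 20.3 FPKM for Btg2 down to 0.483 to 0.622 FPKM for Klf2. The ranges of Ier5 and Gadd45g, Ccn1 and Maff, Maff and Gadd45b, and Klf4 and Atf3 overlapped. Within each control library Ier5 was above Gadd45g (16.0 against 14.7, 17.5 against 13.3 and 18.2 against 16.1 FPKM). In the other pairs named, the order changed from library to library and is not resolved. Under ACS, Ier2 went from place 4 to place 2, at 17.04 to 19.2 FPKM, overlapping with Gadd45g at 15.2 to 17.1 FPKM. Ccn1 stayed at place 5 but was now apart from the genes beneath it, at 6.80 to 9.35 FPKM against 2.07 to 2.27 FPKM for Gadd45b. Under DCS the first 7 places were those of control.

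**Figure D4:**
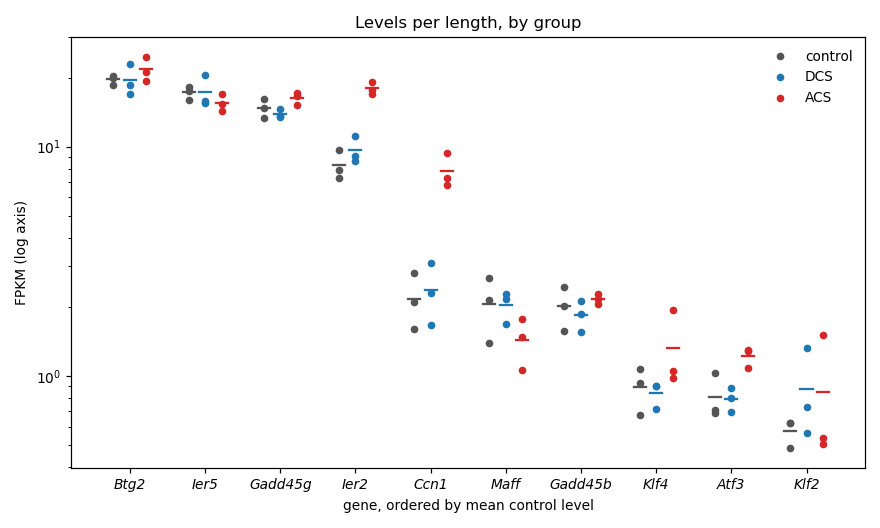
FPKM (vertical, log axis) of the 10 genes in the 3 libraries of each group, with a line at the group mean and the genes in the order of their mean control level. The 10 genes spread over a wide range of levels, and the ACS points stand above the others for Ier2 and Ccn1.

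The 10 genes did not share 1 course over the libraries. Taking the log2 CPM of each gene relative to its own mean over the 9 libraries, the smallest root-mean-square difference between 2 members was 0.154, for Ier5 and Btg2, and the largest was 1.14, for Ccn1 and Maff. Within ACS, library 3 was the highest of the 3 for 8 of 10 members. Within control, library 3 was the highest for 7, and within DCS library 3 for 5. The same measure was taken for 12270 other genes with a mean of at least 1 CPM and a symbol that is not a locus or provisional name. Those nearest to the mean course of the 10 members were Rtel1, Pabpn1, Fnbp4, Myc, Klf9, Atxn2l, Celf5 and Zfp512b. Their differences ran from 0.0399 to 0.0799 where the median gene was at 0.252. With the mean of the 8 members other than Ccn1 and Ier2, a choice made after seeing the data, 0 of these 8 genes were among the nearest.

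Close relatives of the members are given beside the 4.16% of all genes that were called for ACS against control. Of 5 other CCN genes tested, 0 were called under ACS. Ccn2, like Ccn1 a secreted matrix-associated protein, was at 2.81, 2.84 and 3.41 CPM in control and at 4.52, 3.34 and 5.58 CPM under ACS (log2 fold change 0.57, edgeR adjusted p = 0.146), overlapping between the groups. Of the other 2 IER genes, Ier3 gave 0.45 (edgeR adjusted p = 0.127) and Ier5l 0.21 (edgeR adjusted p = 0.447), so neither passed with Ier2. Gadd45a, the third GADD45 gene, gave 0.08 (edgeR adjusted p = 0.811).

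Tob2, a relative of Btg2 that also binds the deadenylase, fell under ACS. It was at 24.5, 25.2 and 28.3 CPM in control and at 26.1, 24.9 and 27.5 CPM under DCS, but at 15.6, 16.3 and 17.1 CPM under ACS. The ACS libraries lay under all others. The log2 fold change was -0.67 against control (SE 0.079, edgeR adjusted p = 0.00268) and -0.68 against DCS (edgeR adjusted p = 0.00551), and both calls held with any 1 library left out. The other 4 tested genes of the BTG and TOB family were not called. Of 12 subunits and partners of the CCR4-NOT deadenylase, 0 were called in any of the 3 comparisons.

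Among 13 tested KLF genes other than the members, Klf9, a factor induced by thyroid hormone and glucocorticoids, was higher under ACS (log2 fold change 0.38, edgeR adjusted p = 0.0461) and Klf12, a repressor, was lower (-0.29, edgeR adjusted p = 0.0352). Both calls were lost in 7 of 9 fits with 1 library left out, all but those without control library 3 or DCS library 3, with adjusted p up to 0.175 for Klf9 and up to 0.124 for Klf12. Of 4 other MAF genes tested and 9 relatives of Atf3, 0 were called. Mafk, a small Maf like Maff, gave -0.32 (edgeR adjusted p = 0.0548).

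**Figure D5:**
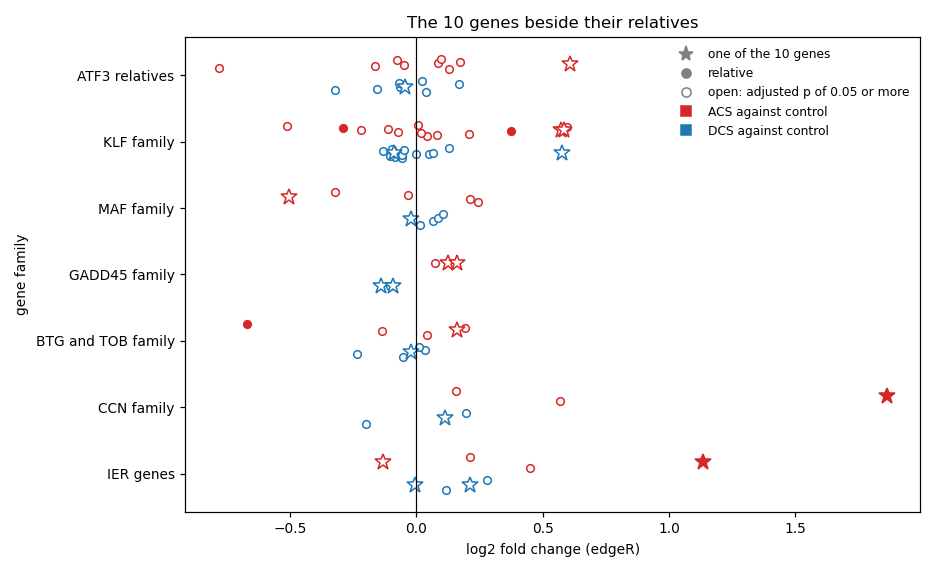
Log2 fold change (horizontal, edgeR) of the 10 genes (stars) and of their relatives with a mean of at least 1 CPM (circles), by gene family, for ACS against control and DCS against control, filled where the adjusted p is under 0.05. The filled symbols are Ccn1, Ier2 and Klf9 to the right of 0 and Tob2 and Klf12 to the left, all for ACS.

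Of 37 other tested early genes that are common to many cell types, 6 were higher and 1 was lower under ACS than in control (2.83% and 1.33% of all genes were), with a median log2 fold change of 0.08. Sik1, a salt-inducible kinase and CREB target, was at 20.8, 21.99 and 25.9 CPM in control and 38.1, 34.9 and 44.5 CPM under ACS (log2 fold change 0.77, edgeR adjusted p = 0.0109). Ppp1r15a, the phosphatase subunit that reverses the block of translation in stress, gave 0.58 (edgeR adjusted p = 0.0261). Myc, the growth-regulating factor, gave 0.43 (edgeR adjusted p = 0.0223), and Rhob, a short-lived GTPase, 0.31 (edgeR adjusted p = 0.0113). Nfil3, a bZIP repressor, gave 0.31 against control (edgeR adjusted p = 0.0246) and was the only one of the 37 called against DCS (0.36, edgeR adjusted p = 0.0357). Per1 gave 0.40 (edgeR adjusted p = 0.0318), with its ACS libraries all above its control and DCS libraries. Socs3, the feedback inhibitor of cytokine signalling, was lower (-0.77, edgeR adjusted p = 0.0293). These 7 calls depended on which libraries were in the fit. Without control library 1 or control library 2, 0 of the 37 were called by edgeR, without ACS library 1, 2 or 3 it was 2, 3 and 2, and the other 4 such fits called 6 to 9. For DCS against control 0 of the 37 were called.

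The lists of pathway genes around the members held 0 or 1 call each, where 4.16% of all genes were called for ACS against control. Of 8 tested integrin subunits and other receptors of CCN1, 0 were called. Of 13 tested genes of the SRF and YAP routes to Ccn1, Elk1 was higher under ACS (log2 fold change 0.26, edgeR adjusted p = 0.0118). The Elk1 call was lost without control library 1, control library 2, ACS library 1 or ACS library 2 (adjusted p up to 0.0627). Yap1 was lower without a call (-0.45, edgeR adjusted p = 0.051), with its ACS libraries all under its control libraries. Estimates were above 0 for 6 of these 13 genes. Of 13 tested targets of SRF and YAP, Flna, an actin crosslinker, was higher (0.42, edgeR adjusted p = 0.00342). Of 9 genes of the ERK5 route to KLF2 and KLF4, 14 stress MAP kinases around GADD45 and 8 tested genes of HSF1 and its chaperones, 0 were called. Ppp1r15a was the 1 call of 12 genes of the ATF4 response, to which Atf3 also belongs. Of 12 tested p53 targets, a set to which Btg2 also belongs, Cdkn1a, the cell cycle inhibitor p21, was lower under ACS (-0.28 against control, edgeR adjusted p = 0.0417, and -0.36 against DCS, edgeR adjusted p = 0.0449). With 1 library left out, the first call held only without DCS library 3 and the second only without control library 3. For DCS against control, 0 genes of these lists were called.

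Markers of other cells were measured beside those of neurons, since the members are expressed in many cell types. The summed level of 11 neuronal markers was 5649 to 6231 CPM in control, 5760 to 6019 CPM under DCS and 5874 to 6120 CPM under ACS, and none of the 11 was at 0. Of these Rbfox3, a nuclear marker of mature neurons, was called higher under ACS (log2 fold change 0.43 against control, edgeR adjusted p = 0.0081, and 0.35 against DCS, edgeR adjusted p = 0.0486). Rbfox3 was the 1 of 11 called for ACS against control, where 4.16% of all genes were called. Estimates were above 0 for 7 of the 11, with a median log2 fold change of 0.042. Map2 was lower without a call (-0.34, edgeR adjusted p = 0.27), and its groups overlapped. For 9 astrocyte markers the sums were 943 to 1002 CPM in control, 909 to 957 CPM under DCS and 760 to 1091 CPM under ACS. ACS library 1 had the lowest sum of all 9 libraries, and in it the marker Slc1a3 was low. Slc1a3 was at 224, 476 and 518 CPM in ACS libraries 1, 2 and 3. It was at 466.5 to 520.2 CPM in control and 466.2 to 483.8 CPM under DCS. Gfap was the 1 of 9 called, higher under ACS than in control (0.25, edgeR adjusted p = 0.0281). For ACS against control 5 of the 9 astrocyte markers had an estimate above 0, with a median log2 fold change of 0.038. Sox9 was lower without a call (-0.33, edgeR adjusted p = 0.1185), with its ACS libraries all under its control libraries. The summed level of 8 progenitor markers was lower in all ACS libraries (822 to 901 CPM) than in all control libraries (946 to 998 CPM). Under DCS the sum was 906 to 949 CPM. For ACS against control 3 of the 8 were called lower, as 1.33% of all genes were. Another 3 of the 8 had an estimate above 0, and the median log2 fold change was -0.19. The sums of 9 microglial and of 8 oligodendrocyte markers overlapped between the 3 groups, at 188 to 211 CPM and 557 to 627 CPM. C1qa, a complement gene, was the 1 of 9 microglial markers called, higher under ACS than in control (0.76, edgeR adjusted p = 0.0253). Of the 9, 5 had an estimate above 0 for ACS against control, with a median log2 fold change of 0.0077. Ptprc was lower without a call (-0.57, edgeR adjusted p = 0.135), with its ACS libraries all under its control libraries. Of the oligodendrocyte markers, 0 were called. Fibroblast and mural markers, for cells in which Ccn1 is abundant, summed to 9.88 to 15.8 CPM in control, 11.1 to 17.8 CPM under DCS and 11.3 to 13.6 CPM under ACS, with Rgs5 at 0 in every library. Their part in the higher Ccn1 and Ier2 levels was not tested.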

How the data were processed

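Polyadenylated RNA of 9 libraries of rat cortical neurons was sequenced as read pairs. The authors trimmed the reads (fastp in the paper, cutadapt 1.9 in the submitters' processing notes), aligned them with HISAT2 2.0.4 and quantified genes with StringTie 1.3.4d. UMI-tools is named in the notes without its role. The paper calls the genome GRCh38 and the table names no build, so gene positions are given as deposited. The deposited FPKM values are the authors' fragment numbers divided by exon length and library size. The deposited estimated count beside each FPKM value is a whole number. A fragment appears to add about 4 to it, since 34.1% of the counts between 1 and 15 equal 4, 8 or 12 and an even spread would give 20%.

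Each of the 9 libraries was placed in its group by its labels, and 0 columns belonged to other samples. edgeR 4.0.16 in R 4.3.3 was run on the estimated counts with TMM scaling, filterByExpr (minimum count 10, minimum total 15), which kept 16284 of 32623 entries, and the quasi-likelihood test, with all 9 libraries in the model (common biological coefficient of variation 0.218, 6 residual degrees of freedom). The 95% intervals use 9.83 degrees of freedom. The p-values were adjusted by Benjamini-Hochberg over the tested genes and called under 0.05. The fit was tested on simulated data. Alternatives used DESeq2 1.42.0, limma 3.58.1 and the settings of the closing section. Columns of GO and KEGG terms were not used.

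The 10 genes, the gene lists and the marker lists were chosen with earlier results of these data known. All 10 genes are named. Of each list, at most 3 genes by smallest p for ACS against control and 1 for DCS against control may be named, along with calls that a count singles out, the latter chosen after their values were seen. The 8 genes nearest to the mean course of the members are also named, and so is Slc1a3, chosen after its values were seen. Positions of 0 of the 10 genes overlap another entry of the table. The authors' counting is not stated to use strand.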

Additional observations from a re-analysis of the deposited data

Results flagged for a closer look

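The 2 currents differed by the edgeR test of ACS against DCS for 2 of the 10 genes and for 3 genes of the lists of early genes, families and pathways, with values given as the log2 fold change of ACS over DCS. Ccn1 was 1.75 higher (adjusted p = 0.0198), Ier2 0.92 higher (adjusted p = 0.0108) and Nfil3 0.36 higher (adjusted p = 0.0357) under ACS. Tob2 was at -0.68 (adjusted p = 0.00551) and Cdkn1a at -0.36 (adjusted p = 0.0449). With 1 library left out in turn, Tob2 was called in 9 of 9 fits, Ier2 in 6, Ccn1 in 4, Nfil3 in 2 and Cdkn1a in 1.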

How the results depend on the processing

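The 2 member calls of ACS against control were made under every alternative tried, and 0 members were called for DCS against control under any. For ACS against DCS the number of members called was 2 in the fit of 9 libraries, 0 to 2 with 1 library left out and 1 at the thresholds of the study (p under 0.05 without adjustment and a log2 change of more than 1 either way). Of 534 member values under the alternatives, 500 kept their direction and their side of the threshold, 8 lost a call and 26 changed sign, all of these uncalled. The replicate number as a block gave 1.89 for Ccn1 (adjusted p = 0.00124) and 1.14 for Ier2 (adjusted p = 0.00125) for ACS against control and changed no member call. Same-numbered libraries correlated by -0.021 to 0.148 in their deviations from the group means, and differently numbered ones by -0.134 to 0.0417. The highest values, 0.148 and 0.104, were those of DCS and ACS libraries 3 and of DCS and ACS libraries 2. Whether same-numbered libraries were made together is not stated, and the main fit did not pair them.

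Over all genes, calls of ACS against control numbered 678, and 1652 by DESeq2, 239 at the thresholds of the study and 138 to 1431 with 1 library left out. Calls of DCS against control numbered 2, and 38 by DESeq2, 93 at the thresholds of the study, 1 each with limma on log2(FPKM + 1), the 6 libraries alone, the replicate block and counts divided by 4, and 1 to 47 with 1 library left out. Calls of ACS against DCS numbered 103, and 650 by DESeq2, 65 and 64 by limma with pseudocounts of 0.1 and 1, 59 with the replicate block, 168 at the thresholds of the study and 27 to 184 with 1 library left out. For Maff, DCS against control turned to 0.021 and 0.0070 by limma with pseudocounts of 0.1 and 1 and to 0.025 with the replicate block, and for Klf2, ACS against DCS turned to 0.0011 with counts divided by 4. With 1 library left out, estimates of ACS against control that crossed 0 ran from -0.13 to 0.83 for Klf2 and -0.032 to 0.29 for Gadd45b. With 1 library left out, estimates of DCS against control that crossed 0 ran from -0.13 to 0.33 for Ccn1, -0.14 to 0.064 for Ier5, -0.15 to 0.064 for Btg2, -0.25 to 0.059 for Klf4, -0.24 to 0.19 for Maff, -0.15 to 0.17 for Atf3 and -0.30 to 0.027 for Gadd45b. With 1 library left out, estimates of ACS against DCS that crossed 0 ran from -0.20 to 0.0045 for Ier5 and -0.71 to 0.42 for Klf2. The alternatives for the other early genes, for list genes that passed and for the nearest genes were chosen after seeing the data. The causes of these changes were not tested. Depth limits Klf2 most, with about 7 to 21 fragments a library.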
